A study of Drosophila melanogaster with 4 samples.

Results

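Antimicrobial peptides and Bomanins are small secreted peptides that adult Drosophila melanogaster makes in defence against bacteria and fungi. Of the 10 genes considered here, 6 had a probe set on the array that the platform annotation pairs with that gene alone: the metchnikowin gene Mtk, the drosomycin gene Drs, the defensin gene Def, the diptericin gene DptB and the Bomanin genes BomS2 and BomS4. Each had 1 such probe set, so the set stands for 6 of the 10845 genes named on the array. The drosocin gene Dro, the attacin genes AttA and AttC and the Bomanin gene BomS1 had no probe set annotated to them, alone or with other genes, and were not analysed here under those names. The members were picked by name and no value enters the rule, but the names were proposed with earlier results of these data known.

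RNA from whole flies was measured on 4 one-colour oligonucleotide arrays, 1 sample each, which form a single baseline group (n = 4). Per the labels, larvae ate a standard diet until early in the third instar, then a diet without yeast through metamorphosis and the first 4 days of adult life, and the baseline flies were killed just before a refeeding time course began. They carry no stated infection, wound or genetic change. Libraries 1, 2, 3 and 4 are the samples labelled hours -4, -3, -2 and -1. The labels call these hours an ordering for change-point analysis and do not call them times of death. Sex, strain, flies per sample and separate cultures are not stated in the sources read here, and refed flies are not analysed here. The p-values therefore measure only the spread between these 4 samples, which may be technical.

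In the fly, microbial products activate either of 2 signalling routes to nuclear factors of the NF-kappaB family. The Toll route, driven by the cytokine Spätzle and the factors Dif and Dorsal, is the main inducer of Drs and the Bomanins. The Imd route, driven by peptidoglycan receptors and the factor Relish, is the main inducer of the diptericin, attacin and drosocin genes. Both routes contribute to Def and Mtk. The fat body, the fly's counterpart of liver and adipose tissue, secretes most of the peptides into the hemolymph, and epithelia of the gut and the tracts make some of them locally.

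Libraries 3 and 4 stood apart from libraries 1 and 2 in control probe sets. The 9 hybridisation controls averaged 1.59 and 1.29 times the level of library 1 in libraries 3 and 4, and 0.927 times it in library 2. The mean log2 ratio of 3' to 5' control probe sets was 1.44 and 1.40 in libraries 3 and 4 and 1.14 and 1.05 in libraries 1 and 2. Library 3 alone also held more signal from male reproductive genes. The summed intensity of 7 testis probe sets was 2578 there and 1084 to 1134 in the others, and that of 6 male accessory gland probe sets was 1605 against 346 to 377. In both lists every measured probe set was highest in library 3. Median intensity over all probe sets was between 112 and 113 in each library. The 23 negative controls are for sequences of mouse, yeast and bacteria, taken here as absent from the samples. The brightest of them had 121, 119, 126 and 133 in libraries 1, 2, 3 and 4. Values at or below that level carry little information on abundance. It is a strict limit, above the median intensity over all probe sets in each library. The median negative control had 47.0, 46.2, 46.1 and 48.7 in libraries 1, 2, 3 and 4.

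The Toll-dependent antifungal gene Drs was bright and nearly level. Its product, drosomycin, is a cysteine-rich peptide that blocks the growth of filamentous fungi. Probe set 143605_at had intensities of 3546, 3613, 3667 and 3661 in libraries 1, 2, 3 and 4, a mean of 3622 ± 55.9 (SD, n = 4). The 4 values lay within a factor of 1.03 of each other, and all were far above the negative controls. The SD of its log2 intensity, 0.02, was 0.33 times the SD expected of probe sets at that intensity (expected 0.07). The ratio was 0.31 after median centring but 0.97 after quantile normalization, so the low spread of Drs depends on the method of scaling.

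Mtk, which encodes a proline-rich peptide active against fungi and Gram-positive bacteria, had intensities of 292, 251, 266 and 256 in libraries 1, 2, 3 and 4 (probe set 143770_at; 266 ± 18.1, SD, n = 4). Library 1 was the highest and the other 3 were close together. All 4 values were above the brightest negative control. The SD of log2 intensity was 0.10, or 1.16 times that expected. It was 0.45 times without library 1, the farthest from the mean, and 1.45 times without library 3. Leaving out the farthest library lowers a spread by construction.

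Def encodes defensin, a peptide active against Gram-positive bacteria. Its probe set 143607_at gave 630.0, 497, 546 and 496 in libraries 1, 2, 3 and 4 (542 ± 62.9, SD, n = 4), with library 1 again the highest. The highest value was 1.27 times the lowest, and the SD of log2 intensity, 0.16, was 1.66 times that expected. Without library 1, the farthest from the mean, it was 0.74 times that expected, and without library 4 it was 2.05 times. DptB, which encodes a glycine-rich peptide active against Gram-negative bacteria and lies next to the diptericin gene DptA, had a smaller spread. Its probe set 147473_at gave 210.3, 206, 195 and 207 in the same libraries (205 ± 6.59, SD, n = 4). Library 3 was the lowest, by a factor of 1.08 from the highest, and the SD was 0.60 times that expected. It was 0.19 times without library 3, the farthest from the mean, and 0.77 times without library 4.

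The Bomanins BomS2 and BomS4 were dim and had the widest spread of the 6. Bomanins are short peptides on which Toll-mediated resistance to fungi and some bacteria depends, and many of their genes lie in 1 cluster. In RefSeq's gene order BomS4 stands between BomS1 and BomBc2, and BomS2 between BomBc2 and BomS3. BomS4 (probe set 147432_at) had 121 and 132 in libraries 1 and 2 but 73.1 and 80.0 in libraries 3 and 4 (102 ± 29.4, SD, n = 4). BomS2 (probe set 144068_at) had 139.7, 101, 98.8 and 77.2 in libraries 1, 2, 3 and 4 (104 ± 26.0, SD, n = 4). The highest value exceeded the lowest 1.81-fold for both genes. Library 1 was the highest for BomS2 and library 2 for BomS4. Only library 1 for BomS2, and library 2 for BomS4, stood clear of the brightest negative control, which BomS4 equalled at 121 in library 1. The lower values of both genes therefore bound their abundance rather than measure it, and the fold between libraries may be understated.

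**Figure D1:**
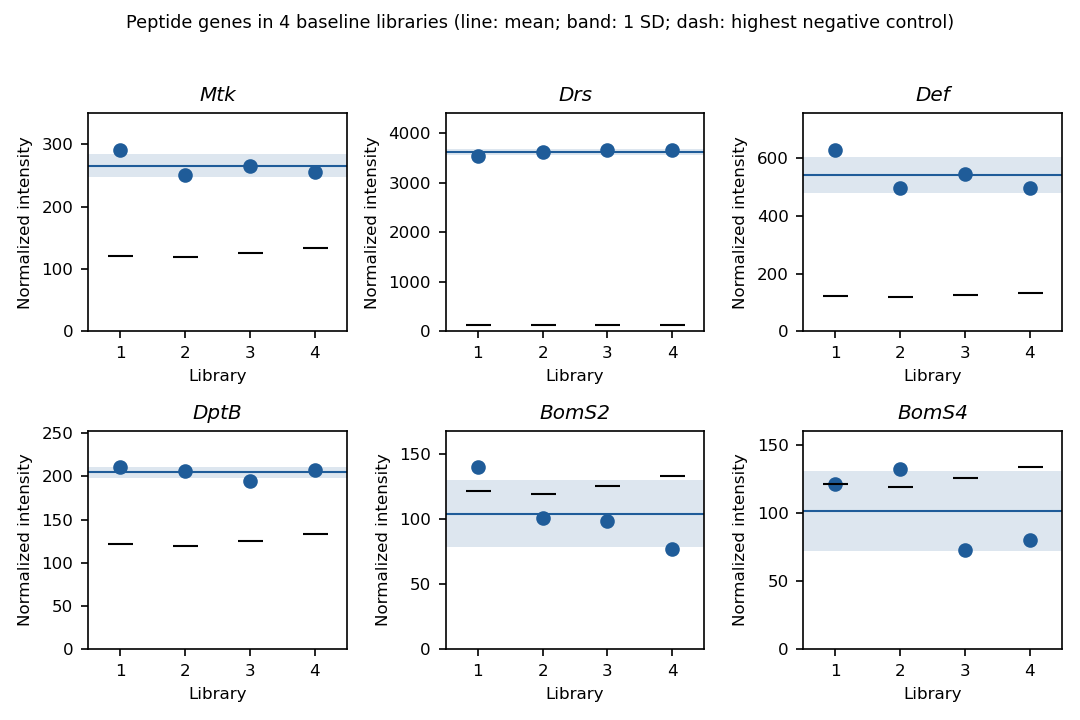
Normalized intensity (linear axis from 0, a scale of its own in each panel) of the 6 measured peptide genes in libraries 1 to 4; the line is the mean, the band 1 SD, and the dashes the brightest of 23 negative controls in each library. Drs, Def, Mtk and DptB lie above the dashes in all 4 libraries, whereas BomS2 and BomS4 lie below them in libraries 3 and 4.

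Since the series holds no contrast group, the test asked whether a gene varied between the 4 libraries more than probe sets of like intensity. It compares the variance of log2 intensity with that expected, in a limma-based F test with Benjamini-Hochberg adjustment over 8379 tested probe sets. All 6 measured members were bright enough to be tested, and 0 of them passed at an adjusted p under 0.05, where 23 probe sets in all, or 0.274%, passed. BomS4 came closest, with an SD of log2 intensity of 0.43 against 0.08 expected, a ratio of 5.24 (limma-based test, adjusted p = 0.0611). For BomS2 the SD was 0.35 against 0.08 expected, a ratio of 4.30 (adjusted p = 0.123). Before adjustment, BomS4 and BomS2 were below 0.05 in the limma-based test, that is 2 of 6 members, as were 5.53% of all tested probe sets. The adjusted p of Def, Mtk, DptB and Drs was between 0.978 and 0.998. The ratio of observed to expected SD had a median of 1.41 over the 6 members, and of 0.93 over all tested probe sets. It was 0.88 over the 4 members that are not Bomanins and 4.77 over BomS2 and BomS4.

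BomS4 was tested only because of libraries 1 and 2, and BomS2 only because of library 1. The filter kept probe sets whose mean log2 intensity was above 6.53, an intensity of 92.5. BomS4 had a mean log2 intensity of 6.62 and dropped out when library 1 or library 2 was left out. BomS2, at 6.67, dropped out when library 1 was left out. No member passed in any setting in which it could be tested; for BomS4 the adjusted p ran from 0.0501 after quantile normalization to 0.236 without library 3.

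**Figure D2:**
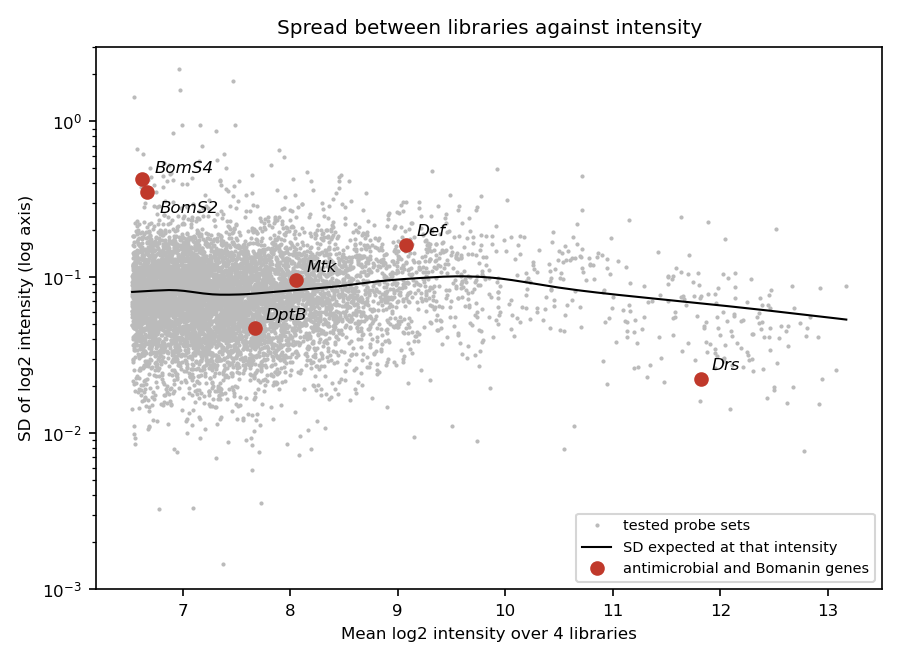
SD of log2 intensity over the 4 libraries (log axis) against mean log2 intensity for all 8379 tested probe sets in grey, with the 6 peptide genes in red; the line is the SD expected at each intensity. BomS4 and BomS2 lie far above the line at low intensity, with SDs of 0.43 and 0.35 against 0.08 expected, and Drs lies below it at high intensity.

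The median log2 deviation from each gene's own mean was 0.18, -0.01, -0.02 and -0.09 in libraries 1, 2, 3 and 4, where all tested probe sets had 0.01, 0.01, -0.01 and -0.01. For the 4 member genes that are not Bomanins the medians were 0.09, -0.04, 0.01 and -0.02. For BomS2 and BomS4 they were 0.38, 0.21, -0.24 and -0.35. Since most values of BomS2 and BomS4 lay below the brightest negative control, the size and order of their deviations carry little information. Of the 4 other members, all above the controls, 0 had their 2 lowest values in libraries 3 and 4, as 28.3% of all tested probe sets did.

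Further Bomanin genes on the array were read beside these. They were grouped with the members after the values had been seen, so their counts are descriptions. Of 8 Bomanin genes with a probe set of their own, 7 were tested. The 5 of these that are not members were above the brightest negative control in every library. Of the 5, 3 had their 2 lowest values in libraries 3 and 4, against 28.3% of all tested probe sets. These were BomS6, BomBc2 and BomT2. BomS6 had 449 and 389 in libraries 1 and 2 and 265 and 299 in libraries 3 and 4. BomT2 had 334 and 302 in libraries 1 and 2 and 224 and 233 in libraries 3 and 4. BomBc2, the neighbour of BomS4 and BomS2, had 294 and 277 in libraries 1 and 2 and 196 and 220 in libraries 3 and 4. BomS5, at 355, 309.6, 312 and 318, and BomBc3, at 173, 133, 126 and 151 in libraries 1 to 4, had their highest value in library 1 but did not show that order. None of the 7 passed the test (limma-based, smallest adjusted p = 0.0611, for BomS4), although 6 had an unadjusted p under 0.05. These 6 include BomS4 and BomS2, which were tested only because of libraries in which they were high. Among the 5 that are not members, 4 had an unadjusted p under 0.05 in that test, against 5.53% of all tested probe sets. The smallest adjusted p of these 5 was 0.178 in the limma-based test. Their SDs had a median of 3.38 times those expected, where all tested probe sets had 0.93. With BomS2 and BomS4 included the median was 3.40. BomT3, the eighth, was below the filter, with 66.9 to 72.2. Whether the probes of 1 Bomanin also take up transcripts of another was not tested, so the 7 may not be separate observations.

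The list of further peptide genes, which includes the 5 tested Bomanins just described, had 36 genes, of which 14 had a probe set of their own and 9 were tested. Of the 9, 1 passed. This was Anp, the gene of andropin, an antibacterial peptide made in the male tract, with 295 in library 3 and 107 to 129 elsewhere (limma-based test, adjusted p = 0.00616), the library in which male reproductive genes were high. IM33, an immune-induced gene, had the median ratio of these 9, Bomanins included, at 2.81. Its intensity was 1039 and 978 in libraries 1 and 2 and 699.7 and 743 in libraries 3 and 4 (adjusted p = 0.551). The cecropin gene CecB (50.6 to 51.7), the attacin gene AttD (41.0 to 45.7) and BaraB (78.4 to 84.9) stayed below the brightest negative control in every library and below the filter. Probe set 143609_at, which RefSeq's synonyms give for Dro but the platform annotation does not, had 51.2 to 65.7 over the libraries. Probe set 143443_at, likewise given for DptA, had 43.2 to 50.4. At these levels neither can be told from background.

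Most fat body markers had their 2 lowest values in libraries 3 and 4. So did BomS6, BomBc2 and BomT2, but not BomS5 and BomBc3. Of 7 tested fat body probe sets, 6 had their 2 lowest values in libraries 3 and 4, where all 8 measured ones summed to 2082 and 2219, against 2728 and 2689 in libraries 1 and 2. The apolipophorin gene apolpp, whose product carries lipids in the hemolymph, had 454 and 447 in libraries 1 and 2 and 263 and 285 in libraries 3 and 4 (limma-based adjusted p = 0.0784). Yp2, a yolk protein gene with the median ratio of the list, had 222 and 268 in libraries 1 and 2 and 217 and 199.9 in libraries 3 and 4. The larval serum protein gene Lsp2 ran otherwise, with 198, 239, 221 and 249 in libraries 1 to 4, and Fbp2, below the filter at 83.3 to 94.9, was highest in library 4. The 6 probe sets include 2 for apolpp. No marker of the list was at 0, and 0 of 7 passed the test. Midgut markers showed the same order in 3 of 3 tested probe sets, among them the amylase gene Amy-d (446, 389, 244 and 361 in libraries 1 to 4) and the trypsin gene alphaTry (3625, 3612, 2541 and 3071). Hemocyte markers showed it in 1 of 2. The collagen gene Col4a1, which the fat body also expresses, had 618 and 654 in libraries 1 and 2 and 476 and 504 in libraries 3 and 4. Hml was level at 204 to 208, while NimC1, eater and srp lay between 24.3 and 33.0, under the median negative control. Among all tested probe sets, 28.3% had their 2 lowest values in libraries 3 and 4. Ovary and egg shell, muscle and nervous system markers did in 1 of 4, 0 of 3 and 1 of 3. Testis, male accessory gland, heat shock and Turandot markers did in 0 of 6, 0 of 3, 0 of 5 and 0 of 1. Drs, Def, Mtk and DptB did not have that order, but 4 genes are too few to set against the share of 28.3%. In RNA of whole flies, fewer cells of a type and less RNA per cell cannot be told apart. The part that fat body content, the 3' to 5' ratio or the hybridisation controls had in the Bomanin values was not tested. Ovary and egg shell, muscle, nervous system and Turandot stress markers had 0 of 4, 0 of 3, 0 of 3 and 0 of 1 probe sets past the test, while male accessory gland, testis and heat shock markers had 2 of 3, 3 of 6 and 1 of 5, with the peak in library 3. Both accessory gland genes that passed, Mst57Da (662 in library 3, 69.0 to 74.5 elsewhere) and Acp95EF (416 in library 3, 41.5 to 45.8 elsewhere, under the floor of 57.1), passed the filter only through library 3, so their ratios say little. In the first set of lists the largest ratios of SD to expected were 2.21 for yl, 1.68 for up, 1.43 for elav and 1.40 for TotE, and in the second they were 19.4 for Mst57Da, 12.2 for Mst84Dd and 6.53 for Hsp26.

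**Figure D3:**
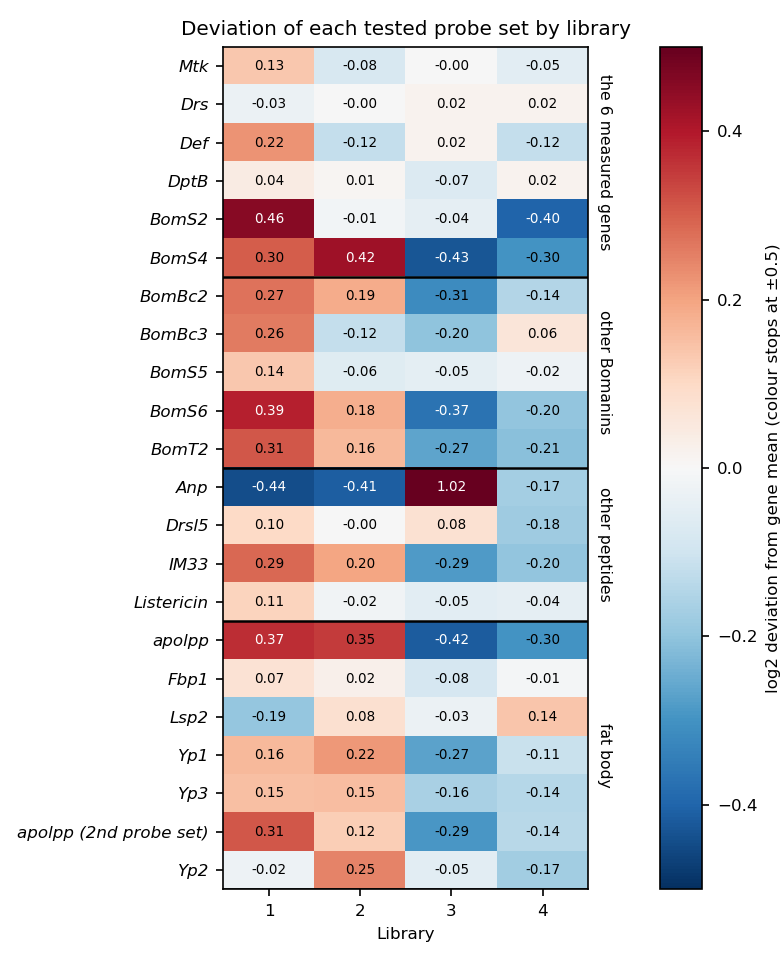
Log2 deviation of each tested probe set from its own mean (printed and coloured; colour stops at 0.5 in either direction) in libraries 1 to 4, for the 6 measured peptide genes, other Bomanins, other peptide genes and fat body markers. BomS4, BomS6, BomBc2, BomT2, IM33 and apolpp are above their means in libraries 1 and 2 and below them in libraries 3 and 4, whereas Drs and DptB stay within 0.07 of theirs.

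No signalling gene upstream of the peptides passed the test. Of 13 tested Toll pathway probe sets 0 passed, 0 had an unadjusted p under 0.05, and the SDs had a median of 0.95 times those expected. Their 2 lowest values were in libraries 3 and 4 in 6 of 13, against 28.3% of all tested probe sets. Those 6 include GNBP3, GNBP2 and pll, which lay below the brightest negative control in every library, so their order carries little information. SPE, the protease that processes Spätzle, had the largest ratio, 1.45, with 303, 296, 269 and 253 in libraries 1 to 4. Myd88, an adaptor of the Toll receptor, had the median one, with 93.2 to 106, below the brightest negative control. The inhibitor gene cact had 434, 428, 378 and 400.3. The receptor gene Tl (52.3 to 64.9), the cytokine gene spz (44.2 to 50.7) and the NF-kappaB genes dl (41.8 to 45.0) and Dif (16.4 to 20.5) were too dim to be tested.

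Of 10 tested Imd pathway probe sets, 5 had their 2 lowest values in libraries 3 and 4, against 28.3% of all tested probe sets. The median ratio of the 10 was 0.76. In the limma-based test 0 of them passed and 1 had an unadjusted p under 0.05. That one was Rel, the gene of Relish, with 212 and 212 in libraries 1 and 2 and 179.7 and 168 in libraries 3 and 4 (ratio 2.19, adjusted p = 0.857 in the limma-based test). The lower of the middle pair of ratios, 0.65, belonged to a probe set of PGRP-LA, a peptidoglycan recognition protein gene, with 147 to 158. The caspase gene Dredd was nearly level at 192 to 201. Of 10 tested probe sets for negative regulators 0 passed, 2 were lowest in libraries 3 and 4, and 1, for Charon, had an unadjusted p under 0.05. Charon had 139.7, 154, 112 and 158 in libraries 1 to 4 (adjusted p = 0.538). pirk, a brake on Imd signalling, had the lower of the middle pair of ratios, with 194, 195, 218 and 202. The amidase genes PGRP-LB and PGRP-SC2, whose products degrade peptidoglycan, had 359.9 to 372 and 389.7 to 424.

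Genes with the most similar pattern over the 4 libraries were sought for the 3 members with the largest ratios, by the root mean square distance between log2 deviations. For BomS4, whose own deviations had a root mean square of 0.37, the nearest named genes were CG12374 at a distance of 0.05, apolpp at 0.05 and CG6295 at 0.11. CG12374 had 2181 and 2197 in libraries 1 and 2 and 1207 and 1386 in libraries 3 and 4. For BomS2, with a root mean square of 0.30, they were bt at 0.09, timeout at 0.10 and mr at 0.11. For Def, with 0.14, they were Rbp9, Tusp and gt, at 0.02, 0.02 and 0.03. These likenesses describe the 4 libraries only. Those of BomS4 and BomS2 rest on values mostly near or below the brightest negative control, so they carry little information and link neither gene to those named.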

How the data were processed

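Whole-animal total RNA of 4 baseline samples was hybridised, 1 sample per array. The deposited table holds linear intensities. Per the labels, the authors scaled the arrays to each other in dChip through an invariant set of probes, which assumes that most probe sets do not differ. Its version, background model and detection calls are not stated in the sources read here. Arrays give no depth, and their number, 4, limits the precision.

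Of 14010 probe sets, 44 controls were set aside. Of the other 13966, the platform annotation pairs 12443 with 1 gene; symbols follow RefSeq's Release 6 plus ISO1 MT table. Values under the 20th percentile (57.1) were set to it before log2 was taken, and 8379 probe sets whose mean was above the 40th percentile were tested. Variance over the 4 libraries was set against the prior variance at like intensity (squeezeVar, robust, with trend; 7.26 prior degrees of freedom; R 4.3.3, limma 3.58.1, statmod 1.5.0), upper tail, with Benjamini-Hochberg adjustment and a threshold of 0.05. The script was tested on simulated data.

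The members and 14 further lists were chosen with earlier results of these data known. All members were named, with the largest and, for immune, fat body, midgut and hemocyte lists, the median ratio of each list (the lower of the middle pair in even lists), and neighbours by pattern. Further Bomanins, dim peptide genes, NimC1, eater, srp, cact, Tl, spz, dl, Dif, Dredd, PGRP-LB and PGRP-SC2 were picked with their values in view. The 13 alternatives were other floors and filters, quantile normalization, median centring, a prior without the robust option or trend, and each replicate left out.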

Additional observations from a re-analysis of the deposited data

Results flagged for a closer look

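Among 73 probe sets of peptide genes and the Toll, Imd and regulator lists, 3, or 4.11%, had 1 library far from the other 3, by a gap that, as a share of the whole range, passed the critical value of Dixon's test; chance flags about 5% of groups of 4. None of the 6 measured members was among them. For probe set 143285_at of nub, a negative regulator of immune genes, library 4 was the highest at 81.6. The others had 72.8 to 73.5 (gap 0.920 of the range). The further nub probe sets, 146291_at and 146293_at, were not flagged, and in 146293_at library 4 was the lowest, at 33.7. For PGRP-LF, a receptor that restrains Imd signalling, library 3 had 23.5 and the others 14.1 to 15.1 (gap 0.888). Both genes lay under the brightest negative control in every library. For Anp, library 3 had 295 and the others 107 to 129 (gap 0.882).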

How the results depend on the processing

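Under all 13 alternatives 0 of the tested members passed. The count over all probe sets was 23, and it was 12 with the filter at the 60th percentile, 10 with a prior that was not robust, 60 with no floor and no filter, and 0 with the floor but no filter (3120 had an unadjusted p under 0.05). It ran from 0 without library 3 to 57 without library 1. With the floor but no filter, 2392 probe sets had all 4 values at the floor and therefore no variance, so the expected SD collapsed and the members' median ratio of SD to expected SD, 1.41, became 28.2. That median was 0.881 with the filter at the 60th percentile and ran from 0.501 without library 1 to 1.75 without library 4; without library 1 and with the stricter filter, BomS2 and BomS4 fell below the filter. Leaving the setting without a filter aside, the ratio was 4.87 to 5.99 for BomS4 and 3.65 to 5.45 for BomS2 in the settings in which they were tested, with adjusted p from 0.0501 to 0.236 and from 0.0523 to 0.374 (limma-based test). The members' median log2 deviation in library 1, 0.18, was 0.09 with the stricter filter and 0.11 without library 2. In library 3 it was -0.02, against 0.01 with the stricter filter and 0.03 without library 1, so its sign is not settled; these moves were under 1 SD over the members. Dim signal limits BomS2 and BomS4, which lay near or below the brightest negative control. No paired analysis was possible because the series holds 1 group.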
